A study of Mus musculus with 6 samples.

Results

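Fatty acids enter oxidation, elongation or desaturation only after they are joined to coenzyme A, and the genes described here encode the enzymes, carriers and organelle proteins of those routes. They are the fatty acid binding proteins, acyl-CoA synthetases, carnitine acyltransferases, mitochondrial and peroxisomal beta-oxidation enzymes, peroxins, acyl-CoA thioesterases, acetyl-CoA carboxylases, elongases and desaturases. Members were the rows of the deposited table whose symbol begins with a stem of these families, such as Acad, Pex, Elovl or Scd. The rule read symbols alone, but the table holds only genes that passed the authors' comparison of fetal and adult cells. Measured values thus decided which family genes could be members, and the families were chosen with earlier results of these data known. The rule found 86 of the 10580 listed genes, all of them protein-coding.

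The study sorted Leydig cells, the androgen-producing cells of the testis interstitium, from mice with a green fluorescent protein transgene driven by Nr5a1 regulatory sequence. Embryos came from CD-1 females crossed to heterozygous Tg(Nr5a1-GFP) males. Adults were heterozygous Tg(Nr5a1-GFP) males, and the methods do not state their strain background. Fetal Leydig cells (FLCs) came from E18.5 testes and adult Leydig cells (ALCs) from P100 testes, with 3 RNA-seq libraries per stage. Both groups carry the transgene, no treatment was described, and the cells kept were those with strong fluorescence, so cells of weak or no fluorescence are outside the data. The methods describe pooling of sorted fetal cells from several experiments to reach the RNA needed.

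Each gene is given here by 1 value, the authors' mean of normalized counts over all 6 libraries, and this mean has no error and no number of replicates of its own. A mean over both stages does not say in which stage a gene was high, nor whether 1 library carried it, and no FLC to ALC difference is given here. In addition, every gene in the table had passed an adjusted p of 0.05 in the authors' comparison of the stages. The listed genes are therefore a selected set, and each statement on listed genes holds within that set. Depth per library is unknown from such means. The mean grows with transcript length, so levels of different genes were compared per kb of annotated exonic length.

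In mitochondrial beta-oxidation, carnitine acyltransferases carry long acyl chains into the matrix, acyl-CoA dehydrogenases make the first double bond and pass electrons to the electron transfer flavoprotein, and hydratases, hydroxyacyl-CoA dehydrogenases and thiolases complete each turn. Peroxisomes shorten very long and branched chains with oxidases in place of dehydrogenases, and peroxins build the organelle. Elongases lengthen chains at the endoplasmic reticulum and desaturases insert double bonds. Steroid-producing cells can keep cholesteryl esters in lipid droplets, and acyl-CoA pools feed those esters. The paper's introduction describes many lipid droplets in rodent fetal Leydig cells and mostly none in adult ones.

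As a group, the members had higher means than listed genes in general. Per kb of exonic length, the median member was at 381.1 normalized counts (quartiles 119.1 and 1333), and the median of the 10521 listed genes with a length was at 147.0 (quartiles 31.74 and 427.4). Without the length, the medians were 1459 and 678.5 normalized counts. By the mean itself 61 of the 86 members (70.9%, exact 95% binomial interval 60.1 to 80.2) stood above the median of all listed genes, and per kb 57 did (66.3%). At least 1000 normalized counts per kb were reached by 27 members (31.4%), against 10.5% of all listed genes, and 6 members (6.98%) fell under 10 per kb, against 12.8%. The members make up 0.813% of the listed genes and held 3.25% of the summed mean. The interval treats genes as draws and covers counting error alone.

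**Figure D1:**
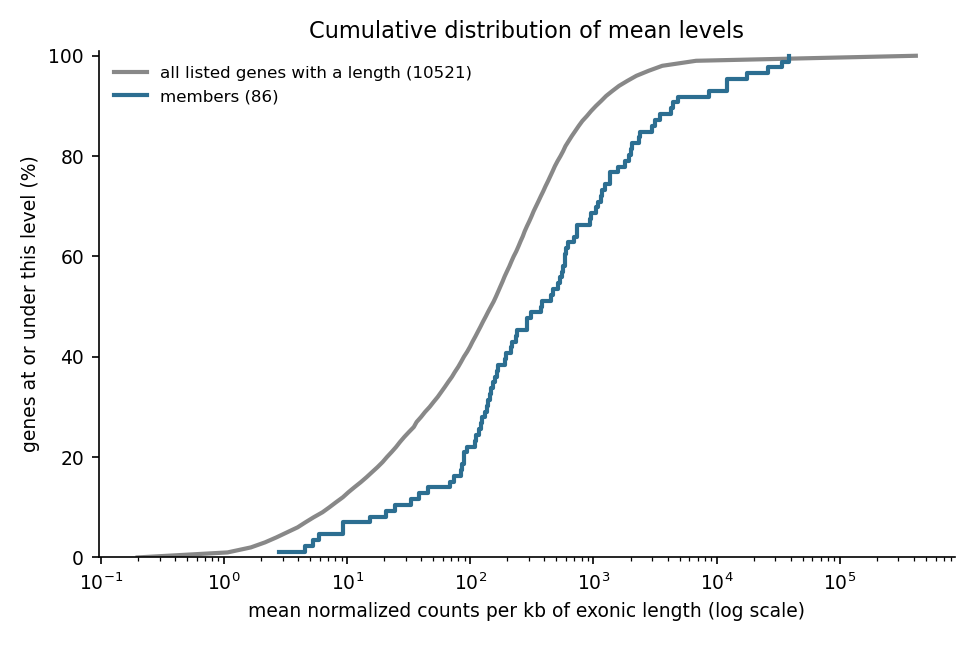
Cumulative share of genes (y axis, %) at or under each mean level (x axis, normalized counts per kb of exonic length, log scale) for the 86 members (blue) and for the 10521 listed genes with a length (grey). The members' curve lies to the right of the other over most of the range, with medians at 381.1 and 147.0.

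The sum was held by few genes. The 5 members with the largest means, Scd2, Acsbg1, Fads1, Fads2 and Elovl5, held 59.5% of the members' summed mean, and the first pair held 39.2%. Per kb the first pair was Acsbg1 and Fabp3, which held 34.6% of the members' sum per kb. At the other end were 9 members with a mean under 100 and 1, Acoxl, under 10.

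Promoter sequence is shown for Acsbg1 and Elovl5, which are among the 5 members with the largest means, and for Hadha and Hadhb, which had unequal means and start on either side of a shared stretch. None is printed for Scd2, Fads1 or Fads2. The stretches are RefSeq sequence of GRCm38.p6, 5′ to 3′ on the strand of the gene, and capitals mark the letters CCAAT or their reverse complement. For Acsbg1 (chr9:54661886-54662005, minus strand) and Elovl5 (chr9:77917245-77917364, plus strand) they are the 120 bases before the RefSeq start. For Hadha and Hadhb, which run away from each other, the stretch is the 85 bases between the GENCODE starts of both genes (chr5:30155163-30155247, plus strand, the strand of Hadhb).
Acsbg1: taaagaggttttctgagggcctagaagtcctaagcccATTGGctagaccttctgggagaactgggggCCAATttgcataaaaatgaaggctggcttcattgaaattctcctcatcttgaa
Elovl5: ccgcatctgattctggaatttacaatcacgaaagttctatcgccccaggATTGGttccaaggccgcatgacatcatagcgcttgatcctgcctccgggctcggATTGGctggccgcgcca
Hadha and Hadhb: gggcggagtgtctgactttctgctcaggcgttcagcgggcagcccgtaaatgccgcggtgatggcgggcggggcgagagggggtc
Acsbg1 held the letters once on each strand and Elovl5 held them on the opposite strand in both places. The shared Hadha and Hadhb stretch held none of the letters searched, and its GC content was 69.4%, against 45.0% for the Acsbg1 stretch and 55.8% for the Elovl5 stretch.

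Across the members, 64 genes had a promoter entry of 250 bases before to 50 bases after a start, 71 entries in all. CCAAT was found on either strand in 30 of the 64 genes (46.9%), beside 41.1% of all 27025 genes of the promoter table and 42.2% of the 7928 listed genes in it. The letters AGGTCA, the half-site that many nuclear receptors bind, were found on either strand in 12 of the 64 (18.8%), beside 18.1% of all genes and 16.2% of listed genes. A direct repeat of AGGTCA spaced by 1 base, which contains the half-site matches, was in 0 of the 64 genes and in 13 of all genes. The members' shares were close to those of all genes. A match to these letters is a description of the sequence, and nothing on binding was measured.

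Among the acyl-CoA synthetases, which activate fatty acids, Acsbg1 stood apart. Acsbg1 (chromosome 9) encodes a long-chain and very-long-chain synthetase of the bubblegum family, and its mean of 140263 normalized counts ranked 11 of all listed genes. Per kb it was at 38919, the highest member, and it held 92.4% of the per-kb sum of the 11 synthetases. The next were Acss1, the mitochondrial acetyl-CoA synthetase, at 1152 per kb (mean 4753) and Acsl4, a long-chain synthetase that prefers arachidonate, at 948.7 per kb (mean 5128). Acsbg1 was 41.0 times Acsl4 per kb.

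The other long-chain synthetases were lower than Acsl4. Acsl5 had a mean of 2281 (469.0 per kb), Acsl1 of 1272 (121.4 per kb) and Acsl6 of 58.8, which at 5.93 per kb was the lowest synthetase. Cytosolic acetyl-CoA synthetase Acss2 had a mean of 1459 and the propionate-activating Acss3 of 1005. The medium-chain synthetases Acsm3 and Acsm5 had means of 543.0 and 79.3, and Acsbg2, the paralog of Acsbg1, had a mean of 190.8. Acsbg1 was thus 532 times its paralog per kb, and of the 11 listed synthetases only Acsm5 and Acsl6 were lower than Acsbg2. Of the family's annotated genes, Acsl3, Acsm1, Acsm2 and Acsm4 were not among the listed genes.

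Fabp3 held most of the level of the fatty acid binding proteins, the small cytosolic carriers of fatty acids. The heart-type Fabp3 had a mean of 27742 (33708 per kb), the second highest member per kb, with 98.2% of the family's per-kb sum. Fabp9, known from sperm, had a mean of 332.6 (512.4 per kb). An overlapping annotated gene, Gm37389, shares 45.7% of the 50-base strings of Fabp9, so the value of Fabp9 is uncertain. Fabp5, the epidermal type, had a mean of 319.6 (89.6 per kb), and Fabp12 had a mean of 26.0 (9.32 per kb). With an exonic length of 823 bases, Fabp3 ranked 71 of all listed genes by the mean and 14 per kb. A pseudogene, Fabp3-ps1, shares 29.2% of the 50-base strings of Fabp3 transcripts, 50 bases being the read length. A read from those stretches could be placed in either, unless its mate lay outside them, as reads were paired.

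All 5 annotated carnitine acyltransferases whose symbols follow the rule were listed. Cpt1a, the liver-type enzyme of the outer mitochondrial membrane that commits long chains to oxidation, had a mean of 12055 (1578 per kb). Cpt2, its partner at the inner membrane, had a mean of 4802 and was higher per kb of exonic length, at 2009. Per kb of coding length the order was reversed, with Cpt1a at 2.13 times Cpt2. Crat, which handles short chains, had a mean of 2898 (537.9 per kb). The muscle type Cpt1b (mean 535.2, 158.7 per kb) and the brain type Cpt1c (mean 473.4, 84.5 per kb) were low beside Cpt1a, which was 9.94 times Cpt1b and 18.7 times Cpt1c per kb. For Cpt1b, 78.6% of its 50-base strings also belong to Gm44502, an overlapping annotated gene, and its value is uncertain.

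The acyl-CoA dehydrogenases separated into 4 members with means of at least 6316 and 4 with means of at most 1204. By the mean 7 of the 8 were above the median of all listed genes, and per kb 4 were. Acadl, for long chains, had a mean of 9683 (4829 per kb), and Acadm, for medium chains, a mean of 9303 (2377 per kb). Acadsb, for short branched chains, had a mean of 8450 (1177 per kb), and Acadvl, for very long chains, a mean of 6316 (2351 per kb). The next member by mean was far lower. Acad9, which also serves the assembly of respiratory complex I, had a mean of 1204, followed by Acad11 with 1160, Acad10 with 679.8 and Acad12 with 250.3. Acad12 was the lowest per kb, at 38.4. Acad10 and Acad12 are neighbours that share 16.8% and 15.7% of their 50-base strings. Of the exons of Acadvl, 42.9% overlap Dvl2 (mean 3972) on the opposite strand, and whether counting used strand is not given in the sources used here.

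**Figure D2:**
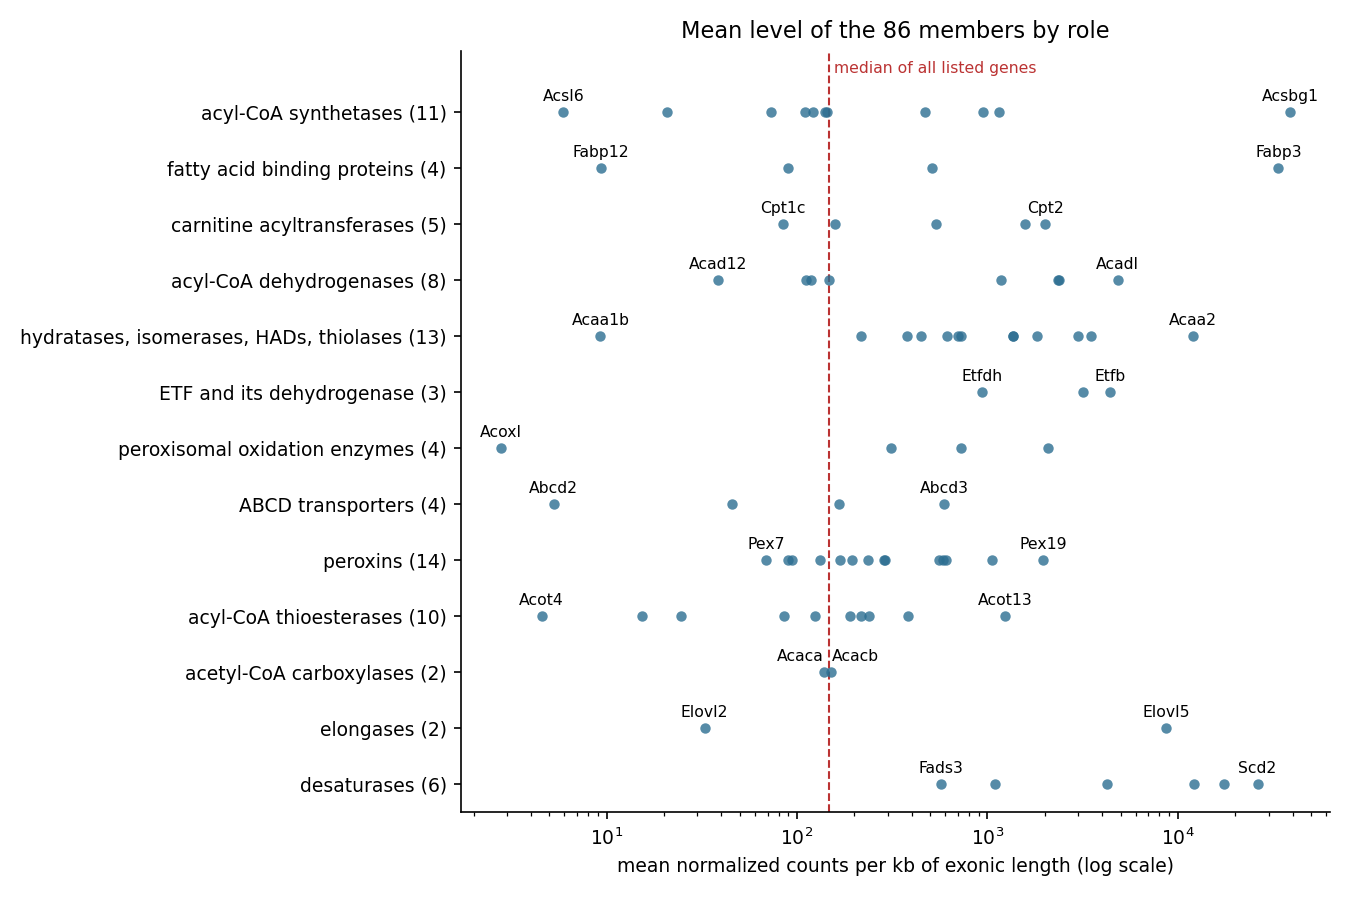
Mean level of each of the 86 members (points) by role, with the number of members in brackets, on a log axis of normalized counts per kb of exonic length (HADs are hydroxyacyl-CoA dehydrogenases, ETF the electron transfer flavoprotein). The lowest member of each role and the highest of most roles are named, and the dashed line is the median of all listed genes (147.0).

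In the role of hydratases, isomerases, hydroxyacyl-CoA dehydrogenases and thiolases, 12 of 13 members were above the median of all listed genes per kb. This role also holds the peroxisomal thiolases Acaa1a and Acaa1b and the genes Echdc1, Echdc2 and Echdc3, so the count is not one of cycle steps alone. Acaa2, the mitochondrial thiolase that releases acetyl-CoA, had a mean of 18291 (12065 per kb, the highest of this role). Hadh, the hydroxyacyl-CoA dehydrogenase for short and medium chains, had a mean of 17313 (3479 per kb). Echs1, the short-chain enoyl-CoA hydratase, had a mean of 11349 (1370 per kb). The isomerases that handle unsaturated chains were Ech1 (mean 6814, 2983 per kb), Eci1 (mean 2905, 1366 per kb) and Eci2 (mean 3413, 616.1 per kb).

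Hadha and Hadhb encode the alpha and beta subunits of the mitochondrial trifunctional protein, and their means were unequal. Hadha had a mean of 15886 (1820 per kb) and Hadhb of 1424 (215.9 per kb), a ratio of 8.43 per kb of exonic length and 6.95 per kb of coding length. Both lie on chromosome 5, 85 bases apart and on opposite strands, with the shared stretch printed above between them. Of the 50-base strings of Hadhb, 19.7% occur in other genes' transcripts (18.1% in Gm13910), and how reads of such strings were counted is not given in the sources used here. With 1 pooled value per gene the spread of this ratio over libraries is unknown.

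The remaining members of this role were the hydratase-like Echdc3 (mean 1873), Echdc1, which removes ethylmalonyl-CoA (mean 1560), and Echdc2 (mean 1025), and the peroxisomal thiolases Acaa1a and Acaa1b. Acaa1a had a mean of 3224 (730.4 per kb) and Acaa1b of 18.2 (9.27 per kb), and Acaa1b shares 30.5% of its 50-base strings with Acaa1a. Of the exonic length of Echdc1, 75.9% overlaps Rnf146 on the opposite strand. The electron transfer flavoprotein had means of 5848 for Etfa (3187 per kb) and 5105 for Etfb (4385 per kb), and its dehydrogenase Etfdh of 6990 (931.4 per kb). The means of these 3 genes lay within 1.37 times of each other, and per kb within 4.71 times. An overlapping gene, Gm45233, shares 43.8% of the 50-base strings of Etfb.

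In the peroxisome, Acox3, an oxidase for branched chains, had a mean of 8398 (728.9 per kb). Ehhadh, the bifunctional enzyme of the next steps, had a mean of 925.3 (310.4 per kb). Acoxl, an oxidase-like gene, had the lowest mean of the members at 8.83 (2.78 per kb). The ABCD transporters bring acyl-CoA into peroxisomes, apart from the lysosomal Abcd4. Abcd3 led them with a mean of 3901 (591.7 per kb). Abcd4 had a mean of 364.1 (45.5 per kb) and Abcd2 of 31.3 (5.26 per kb).

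The 14 listed peroxins spanned membrane protein insertion, matrix protein import, receptor recycling and proliferation, and their levels per kb were closer together than those of most enzyme families. The chaperone of membrane proteins, Pex19, was highest with a mean of 7460 (1955 per kb), and its docking partners Pex3 and Pex16 had means of 796.2 (168.0 per kb) and 1041 (586.4 per kb). Of the docking complex for imported proteins, Pex13 had a mean of 2577 (554.9 per kb) and Pex14 of 1801 (287.2 per kb). Of the ubiquitin ligase ring, Pex2 had a mean of 2388 (1052 per kb) and Pex10 of 433.4 (131.4 per kb). The export ATPase Pex6 had a mean of 2288 (602.8 per kb) and the membrane anchor Pex26 of 1641 (289.5 per kb). Pex7, an import receptor, had a mean of 831.5 and was the lowest peroxin per kb, at 68.8. The proliferation factors Pex11a and Pex11g had means of 752.1 (236.4 per kb) and 321.0 (94.5 per kb). Of the peroxins, 10 were above the median of all listed genes per kb, and the highest was 28.4 times the lowest. Pex5 and Pex5l were not among the listed genes.

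The acyl-CoA thioesterases, which release free fatty acids from coenzyme A, had a median of 157.3 per kb, close to that of all listed genes. Acot13, which is mitochondrial, had the highest mean, 918.5 (1234 per kb), followed by Acot7, which is high in brain, with 815.7 (384.0 per kb). The mitochondrial Acot2 and Acot9 had means of 525.1 (239.1 per kb) and 495.4 (218.0 per kb), and Acot12, an acetyl-CoA hydrolase, of 410.2 (124.6 per kb). The peroxisomal Acot8 had a mean of 379.4 (190.0 per kb) and the cytosolic Acot1 of 335.6 (85.6 per kb). Acot6 with 98.0, Acot10 with 37.9 and Acot4 with 30.4 were lowest, and Acot4 was at 4.56 per kb. Per kb, 5 of the 10 were above the median of all listed genes. Acot2 shares 24.5% of its 50-base strings with Acot1, and Acot10 shares 23.1% with Acot9, so the values of these paralogs are uncertain where reads fell in shared stretches.

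Of the genes that make malonyl-CoA, the 2-carbon donor for synthesis and elongation, Acaca had a mean of 2355 (137.9 per kb) and Acacb, which acts at the mitochondrial surface, of 1459 (151.5 per kb). Both stood near the median of all listed genes per kb. The gene of fatty acid synthase, Fasn, was not among the listed genes. For Acaca, 29.2% of its 50-base strings also occur in Gm5182.

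The elongases and desaturases included 4 of the 5 largest means of the module, those of Scd2, Fads1, Fads2 and Elovl5. Elovl5, which elongates polyunsaturated chains, had a mean of 30518 (8665 per kb), and Elovl2, which acts on longer polyunsaturated chains, of 129.8 (32.7 per kb). Elovl5 was 265 times Elovl2 per kb, and 5 other annotated elongases were not among the listed genes. Scd2 and Scd1 are stearoyl-CoA desaturases, which make monounsaturated fatty acids. Scd2 had the highest mean of the members, 143195 (26207 per kb), and ranked 10 of all listed genes. Scd1 had a mean of 20734 (4238 per kb), 6.18 times lower per kb. Fads1 and Fads2, the front-end desaturases of polyunsaturated fatty acid synthesis, had nearly equal means of 58282 (12112 per kb) and 57837 (17553 per kb). Fads3 had a mean of 2152 (567.5 per kb) and Fads6 of 7300 (1097 per kb). All 6 desaturases were above the median of all listed genes per kb.

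Summed by role, the 6 desaturases held 40.0% of the members' mean counts, 29.4% per kb of exonic length and 42.1% per kb of coding length. The 11 synthetases held 21.7%, 20.0% and 11.8% on the same scales. The fatty acid binding proteins held 3.93%, 16.3% and 12.2%, and the 2 acetyl-CoA carboxylases 0.527%, 0.138% and 0.0903%, so that several shares depended on the scale. The 14 peroxins held 3.31%, 3.0% and 3.85%, and the 10 thioesterases 0.56%, 1.2% and 0.776%.

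**Figure D3:**
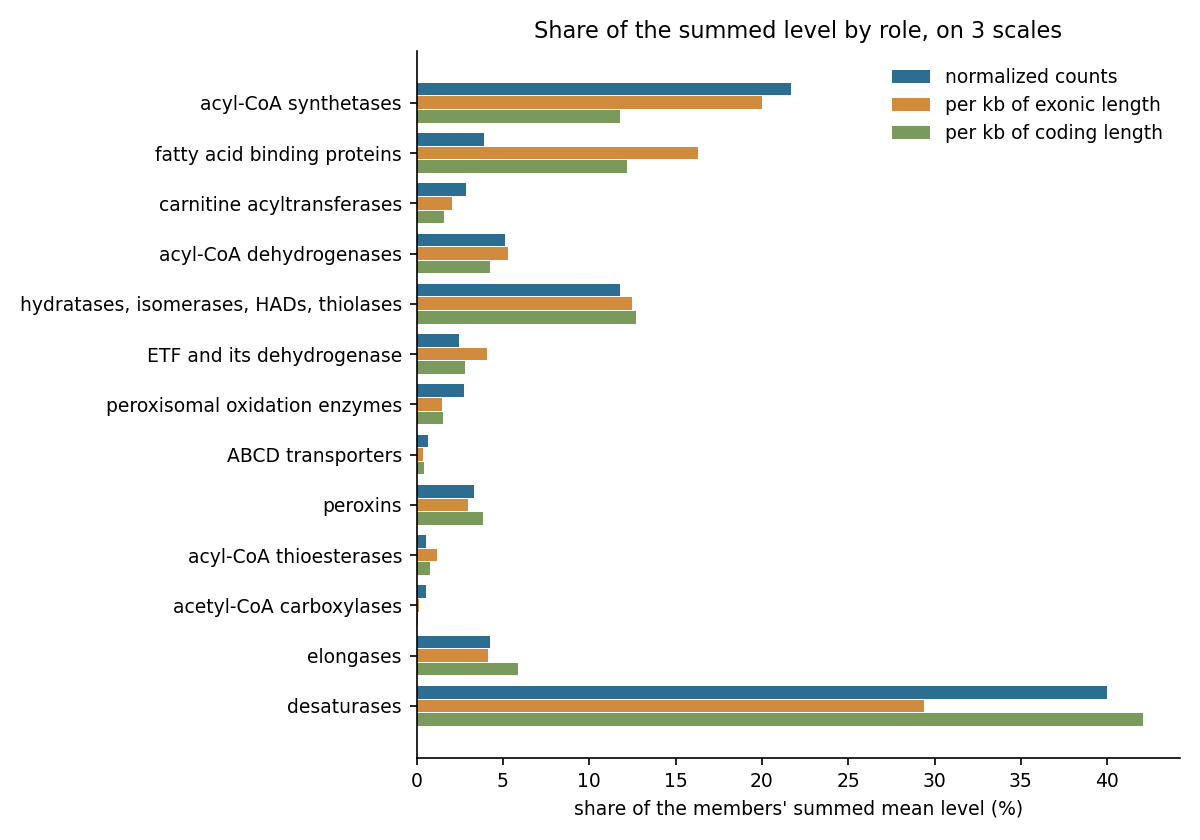
Share of the members' summed mean level (x axis, %) held by each role, by normalized counts (blue), per kb of exonic length (orange) and per kb of coding length (green). Desaturases hold the largest share on all 3 scales, and fatty acid binding proteins go from 3.93% by counts to 16.3% per kb of exonic length.

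Several members lie next to each other on a chromosome, and 9 pairs of consecutive members were within 150000 bases. On chromosome 19 Fads1, Fads2 and Fads3 form a cluster, in which Fads2 was 30.9 times Fads3 per kb and 1.45 times Fads1. Scd2 and Scd1 lie 87590 bases apart on the same chromosome. On chromosome 12 Acot2, Acot1, Acot4 and Acot6 follow each other on the plus strand, and Acot1 was 18.8 times its neighbour Acot4 per kb. Fabp9 was 55.0 times Fabp12 per kb on chromosome 3, a ratio of 11.9 per kb of coding length. Fads1 and Fads2 was the pair closest in level, and the other pairs differed by at least 2.79 times per kb of exonic length.

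**Figure D4:**
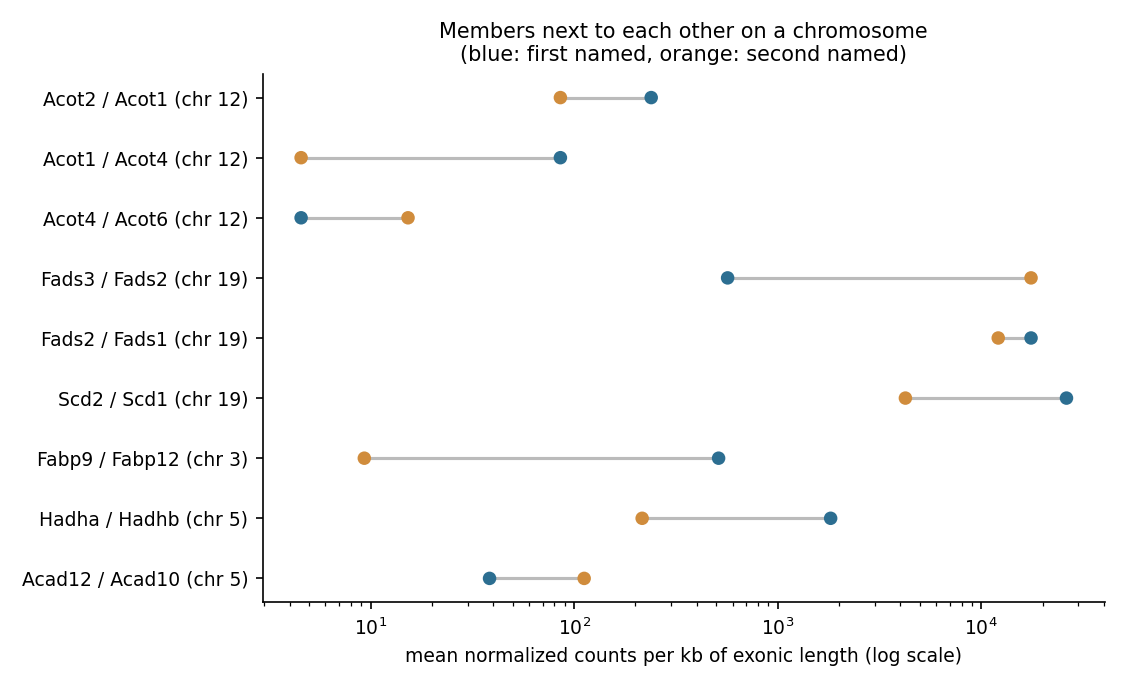
Mean level (x axis, normalized counts per kb of exonic length, log scale) of the 9 pairs of consecutive members within 150000 bases, first named gene in blue and second in orange. On this scale Fads2 and Fads1 lie close together, and Fabp9, whose value is uncertain, and Fabp12 are farthest apart.

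Beyond the symbol rule, other genes of the same pathways were taken from lists. All 13 listed beta-oxidation and ketone body genes of a list of 15 were above the median of all listed genes per kb, among them the mitochondrial thiolase Acat1 with a mean of 8890 (2366 per kb). Of 28 peroxisomal genes 21 were listed and 18 of these were above that median, led by Idh1, which makes NADPH in cytosol and peroxisomes, with a mean of 39665 (14315 per kb). Of 15 elongation and synthesis genes 8 were listed and 7 were above it, led by Me1, the cytosolic malic enzyme, with a mean of 61621 (16014 per kb). Of 15 uptake and transport genes 8 were listed and 7 were above it, led by Dbi, the acyl-CoA binding protein, with a mean of 8003 (5628 per kb). Among all listed genes the median divides the genes evenly by construction, and these counts are descriptions with no test.

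The listed regulators of fatty acid genes were 14 of 24, and 8 of these were above the median of all listed genes per kb. Scap, the escort of sterol regulatory element binding proteins, led with a mean of 23223 (3120 per kb), and Insig1, which holds Scap in the endoplasmic reticulum, had a mean of 4836 (1563 per kb). The fatty acid receptors Ppara and Ppard had means of 1279 (333.4 per kb) and 897.4 (119.4 per kb). Of their partners, Rxra had a mean of 4333 (793.3 per kb), Rxrb of 1449 (364.8 per kb) and Rxrg of 15.8 (6.86 per kb). The coactivators Ppargc1a and Ppargc1b, known for mitochondrial gene programs, had means of 31.6 (4.79 per kb) and 41.9 (10.5 per kb). The remaining listed regulators were Nr1d1 (mean 2053), Lpin1 (mean 1825), Lpin2 (mean 1354), Mlx (mean 975.8) and Nr1h3 (mean 201.7). Both coactivators and Rxrg thus lay in the low tail of the listed genes.

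The label of the cells was checked against markers. Of 9 Leydig cell markers 8 were listed, with means from 18581 for Hsd17b3 to 283675 for Cyp17a1, and the lowest of them was above 98.8% of all listed genes by its mean. The highest listed markers of other cells were lower. They were Amh for Sertoli cells (4 of 6 listed, mean 137.3), Prm1 for germ cells (4 of 7, mean 1498), Csf1r for immune cells (6 of 7, mean 981.8) and Cdh5 for endothelial cells (2 of 5, mean 1326). For interstitial progenitors the highest was Pdgfra (3 of 4, mean 2165), and for adipocytes Plin1 (2 of 5, mean 3466), a lipid droplet protein, with the defining Adipoq at 3.33. No marker of peritubular myoid or erythroid cells was listed. The table holds only genes that passed the authors' comparison of stages, so a marker at a similar level in both would be missing. Unlisted markers therefore say nothing on whether such cells were present. Per kb the sperm transcripts Prm1 and Tnp1 were at 2623 and 2301, above 96.8% and 96.2% of listed genes, while the germ cell marker Ddx4 was at 61.1. Their part in the levels of Fabp9, Fabp12 and Acsbg2, known from the testis, was not tested.

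Not every gene of these families was in the table. Of 114 annotated protein-coding genes whose symbols follow the rule, 86 (75.4%) were in the table, against 10158 of 21924 protein-coding symbols (46.3%). The other 28 were not analysed here. Both shares count current symbols alone. All 86 members had one, but 298 listed genes were matched through an older symbol, so the 46.3% may be too low. Both sets can also include genes with too few reads to enter the table. Among symbols that follow the rule, elongases (2 of 7) and fatty acid binding proteins (4 of 9) had the smallest shares listed. The carnitine acyltransferases (5 of 5) and ABCD transporters (4 of 4) that follow it were all listed, and family genes with other symbols were not counted.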

How the data were processed

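RNA of 3 FLC libraries (E18.5) and 3 ALC libraries (P100) was sequenced by the authors on a HiSeq instrument after TruSeq Stranded Total RNA Ribo-Zero preparation, although the results text names poly(A)+ RNA. The authors used Casava 1.8.2 for demultiplexing, GemTools for mapping and an in-house count per gene (GENCODE, GRCm38, at least 10 reads), and DESeq2 for the comparison of stages. The deposited signal is the authors' mean over the 6 libraries of counts divided by size factors. The deposited log2 fold changes, their errors, the score (a test statistic) and each p-value belong to the authors' comparison and were not used, except that the adjusted p-value was read to see that 0 listed genes were at or above 0.05. Values per library were not used here, so the planned count model between stages was not fitted and no sample was tested or left out. By the library names, lane 2 held 3 E18 libraries and 1 P100 library, and lane 1 held 2 P100 libraries, so lane and stage overlap.

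From the table, ranks, medians, sums and shares were computed with Python 3.11.15 and pandas 2.3.3. GENCODE vM21 on GRCm38 gave the annotation for 10223 genes through the symbol and for 298 through an older symbol, and 59 stayed unmatched, none of the 86 members among them. This annotation is later than the authors', and its exonic length joins all transcripts, introns kept in some transcripts included, so coding length was added as an alternative after the data were seen. Shared 50-base strings were counted between the annotated transcripts of each member and those of all other genes. Strings were counted singly, so the pairing of the reads was not taken into account and the shares may overstate the ambiguity. Promoter sequences are RefSeq's, GRCm38.p6, and motifs were searched on both strands. The exonic length and motif steps were tested on random intervals and sequences with known answers, and the role step on named symbols. The share step was run on real means drawn at set shares, so its outcome was fixed by the draw. The binomial interval was not tested. The rule named every member with its mean, the highest and lowest of each role, and of the other lists the highest gene and the listed regulators; a few of these genes are not reported here. The members and lists were chosen with earlier results of these data known. Alternatives were a filter at a mean of 10, a protein-coding background, levels per kb, and leaving out pattern matches known as something else.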

Additional observations from a re-analysis of the deposited data

How the results depend on the processing

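No paired analysis was possible because only 1 pooled mean per gene was used, and for the same reason the planned fit between FLCs and ALCs, with its alternative tool, filter and replicates left out, was not run. The number of members was 86 as listed and with protein-coding matches alone, and 82 without the matches known by name as something else (Acoxl, Echdc1, Echdc2 and Echdc3). The share of members above the median of all listed genes was 70.9% as listed. Over the 6 alternatives run it went from 66.3% per kb of exonic length to 74.4% without the 8 members that share over 20% of their 50-base strings. All lay inside its interval, but the alternatives score mostly the same genes, so no conclusion is drawn from that. The median member was at 1459 with low genes or other-named matches left out, and became 381.1 per kb of exonic length and 1026 per kb of coding length, since these divide by length. The 5 highest members held 59.5% of the summed mean, 61.1% per kb of exonic length, 59.6% per kb of coding length and 54.3% without Scd2. Of the 13 roles, 10 kept their leading member per kb of exonic length, with Cpt2, Etfb and Acacb leading in the other 3, and 11 per kb of coding length, with Etfb and Hadh leading in the others. Coding length and the omission of members with shared strings were chosen after the data were seen. Depth per library is unknown, so no limit of detection can be given.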
